A study of Mus musculus with 2 samples.

Results

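The cells described are CD8 T cells of mouse gliomas that held transcripts of the inhibitory receptors Pdcd1 (PD-1) and Havcr2 (TIM-3). They were chosen from the single-cell counts. A cell had at least 2 unique molecular identifiers (UMIs, each 1 captured transcript) over Cd3d, Cd3e and Cd3g, at least 2 over Cd8a and Cd8b1, none of Cd4 or Foxp3, and at least 2 over Pdcd1 and Havcr2. Cells with 2 or more UMIs of Gzmk plus Ly6c2, 2 or more of Xcl1, or 3 or more over Mki67, Top2a, Birc5 and Ccna2 were left out. The rule found 696 member cells among 15723 cells kept, 13 in the EM library and 683 in the PBS library. The other 4761 CD8 T cells, 2362 from EM and 2399 from PBS, met the same CD3, CD8, Cd4 and Foxp3 criteria.

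Living CD45.2-positive, CD45.1-negative immune cells, which the labels call endogenous, had been sorted from gliomas and sequenced with the BD Rhapsody system, a microwell method with barcoded beads. One library came from tumours treated with EM and carries 72 h in its title, and 1 came from tumours treated with PBS, with no time given. EM is not spelled out in the labels, and the glioma line, the strain and age of the mice and the number of animals pooled are not given. The title of the series concerns adoptive macrophages and the immunosuppressive environment of glioblastoma, so the comparison asks how the host's own CD8 T cells differed between EM and PBS. With 1 library per group no test was possible, and every interval below is a 95% interval of counting error only.

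CD8 T cells that meet antigen for a long time, as in tumours and chronic infection, pass into a state called exhaustion. They come to hold several inhibitory receptors together with the transcription factor TOX, and lose the TCF-1 (Tcf7) programme of progenitor and memory cells. PD-1 damps signalling of the T cell receptor and is the target of checkpoint antibodies. TIM-3 marks the terminally exhausted end of the range, where cells can still hold perforin and granzymes, but it is also made by macrophages and dendritic cells.

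The EM library held 7967 kept cells with a median of 2016 UMIs, and the PBS library 7756 kept cells with a median of 4303 UMIs. Member cells had a median of 2743 UMIs in EM and 4425 in PBS. Summed over the members, there were 37557 UMIs in EM and 3257449 in PBS, so that 1 UMI was worth 26.6 and 0.307 counts per 1000000 UMIs (CPM). Any level under 79.9 CPM in EM members therefore rests on fewer than 3 UMIs, the limit used here for a gene with none. The Y-linked gene Ddx3y stood at 4.46 CPM in EM and 192 CPM in PBS over all kept cells, and Xist, the RNA of the inactive X chromosome, at 384 and 10.6 CPM. Treatment, the sex-linked make-up of the libraries and the library itself cannot be told apart. The libraries shared 66 cell barcodes, of which 0 were EM members and 6 were PBS members.

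Member cells made up 13 of 2375 CD8 T cells in EM (0.547%, interval 0.292 to 0.934%) and 683 of 3082 in PBS (22.2%, interval 20.7 to 23.7%), a share 40.5-fold lower in EM (interval 23.5 to 76.4-fold). Much of that distance came from criteria other than the inhibitory receptors. Cells with 2 or more UMIs of Pdcd1 plus Havcr2 were 12.3% of CD8 T cells in EM and 52.3% in PBS, which is 4.27-fold lower in EM (interval 3.77 to 4.85-fold). The Gzmk plus Ly6c2 criterion then kept 40 of 291 such cells in EM and 843 of 1612 in PBS. Xcl1, a chemokine gene, removed most of the EM cells left, keeping 16 of 40 in EM and 824 of 843 in PBS. The proliferation criterion kept nearly the same share in both libraries, 13 of 16 in EM and 683 of 824 in PBS.

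Of the criteria, that of Gzmk plus Ly6c2 left out most of the EM cells, mainly through Ly6c2. This surface protein of activated and memory CD8 T cells, and of monocytes, had at least 1 UMI in 89.1% of EM and 52.8% of PBS CD8 T cells. Of the 278 EM cells that met the Pdcd1 and Havcr2 criterion but were not members, 244 held 2 or more UMIs of Ly6c2. In PBS it was 622 of 929. Over all CD8 T cells, 83.6% in EM and 39.0% in PBS held 2 or more. The criteria overlapped, since 129 of the 278 EM cells held 2 or more UMIs of Xcl1 and 59 failed the proliferation criterion. In PBS it was 38 and 418 of 929. Ly6c2 also had UMIs in 36.6% of EM B cells and 38.0% of PBS B cells, a cell type not chosen for it, and near-identical Ly6c1 may share its reads. Its level over CD8 T cells was 4103 CPM in EM and 629 CPM in PBS, above the 1818 CPM of EM B cells but below the 984 CPM of PBS B cells. The part of free RNA in these counts was not tested. Without the Gzmk plus Ly6c2 criterion, a choice made after the data were seen, the rule took 136 EM cells (5.73%) and 1175 PBS cells (38.1%), 6.66-fold lower in EM (interval 5.57 to 8.01-fold). This wider set is used beside the 13 cells below.

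Depth moved the share as well, since the criteria count UMIs. With each cell thinned to 1000 UMIs, and the rule applied again, members were 13 of 1361 CD8 T cells in EM (0.955%, interval 0.510 to 1.63%) and 139 of 1539 in PBS (9.03%, interval 7.65 to 10.6%). The difference was then 9.46-fold, against 40.5-fold at the deposited depth. The wider set gave 2.35% in EM and 9.81% in PBS at that depth. Both the deposited and the thinned values were lower in EM, by amounts that the rule and the depth set between them.

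**Figure D1:**
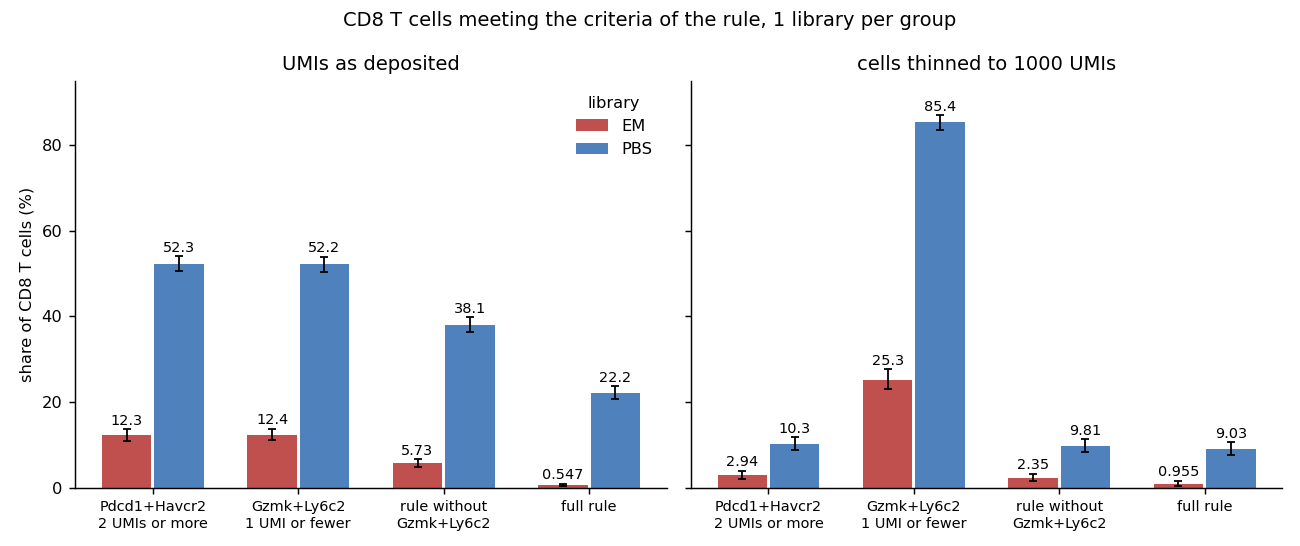
Share of CD8 T cells (%) meeting parts of the rule in the EM (red, left) and PBS (blue, right) library, with exact 95% binomial intervals, for counts as deposited and for cells thinned to 1000 UMIs. The full rule takes 0.547% in EM and 22.2% in PBS at the deposited depth, and 0.955% and 9.03% after thinning.

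The label of exhausted CD8 T cells was set against its markers, Cd8a, Pdcd1, Havcr2, Prf1 and Serpinb9b, of which the first 3 belong to the rule. Pdcd1 had UMIs in 11 of 13 EM members and 612 of 683 PBS members, and Havcr2 in 10 of 13 and 485 of 683. Havcr2 was also found in 19.7% of EM and 49.8% of PBS myeloid cells, whereas Pdcd1 was found in 0.605% and 2.02% of them. Prf1, which encodes the pore-forming protein perforin, had UMIs in 4 of 13 EM members and 489 of 683 PBS members, with 133 and 485 CPM. In PBS this was above the 322 CPM of other CD8 T cells (log2 ratio 0.59, interval 0.51 to 0.67). In EM it was 133 CPM in members and 109 CPM in other CD8 T cells, with an interval from -1.34 to 1.52. Serpinb9b, a relative of the granzyme B inhibitor Serpinb9, had UMIs in 0 of 13 EM members, which allows a share of cells with a UMI of up to 23.1% by the limit of 3 counts and sets no limit on expression, and in 65 of 683 PBS members (9.52%). Other PBS CD8 T cells had it as often (9.17%) and at a like level, 62.6 CPM in members and 58.9 CPM in the others. By class, other PBS CD8 T cells had 27.4 CPM in the class low in Pdcd1 and Havcr2, 66.1 CPM in the Gzmk-Ly6c2 class and 67.5 CPM in cycling cells. Serpinb9b was thus higher in members than in the low class (1.19, interval 0.80 to 1.60) but not than in all other CD8 T cells together. In EM, neither Prf1 nor Serpinb9b set members apart from other CD8 T cells beyond counting error.

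Tox was higher and Tcf7 lower in members than in the pool of all other CD8 T cells in both libraries. The rule named neither gene. Tox, the transcription factor that sets up exhaustion, had UMIs in 9 of 13 EM members and 449 of 683 PBS members, at 559 and 558 CPM. Other CD8 T cells had 156 CPM in EM and 306 CPM in PBS. Tcf7, the factor of progenitor and memory cells, had no UMI in the 13 EM members and UMIs in 5 of 683 PBS members (3.68 CPM). Other CD8 T cells had 110 CPM in EM and 34.03 CPM in PBS. Cells just outside the rule differed less from members. PBS cells failing only the Gzmk plus Ly6c2 criterion, with 2 or 3 UMIs, held Tox at 536 and 544 CPM. Their Tcf7 stood at 9.95 and 2.14 CPM. The like EM cells, 4 and 12, held Tox at 712 and 522 CPM. Cells failing only the receptor criterion, with 1 UMI, held Tox at 575 CPM in EM but 374 CPM in PBS. Their Tcf7 stood at 27.4 CPM in EM and 11.3 CPM in PBS. All of these comparisons within a library use the cells that the rule sorted, so they describe the members and are no test.

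The inhibitory receptors other than Pdcd1 and Havcr2 were somewhat higher in PBS members than in other PBS CD8 T cells. All 15 measured were higher, 1 of them 2-fold or more, with a median log2 ratio of 0.48. Over all 6731 genes measured the median was 0.04, and 0.401% were 2-fold or more higher and 2.91% lower. Lag3, a receptor for MHC class II, stood at 145 CPM in members and 86.4 CPM in other CD8 T cells (0.75, interval 0.59 to 0.90). Tigit, a receptor for nectin-type ligands, stood at 36.2 and 23.1 CPM (0.65, interval 0.33 to 0.95). Ctla4, which competes with CD28 for its ligands, stood at 713 and 513 CPM (0.48, interval 0.41 to 0.54). Cycling cells, with a median of 8478 UMIs in PBS, are part of these others. Against the non-cycling ones, a comparison added after the data were seen, 11 of 16 measured receptors were higher with a median of 0.18, where 0.469% of all genes were 2-fold or more higher and 0.772% lower.

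In EM, 42% of 7184 genes measured differed 2-fold or more between members and other CD8 T cells, so that single EM values carry wide intervals. Lag3 stood at 160 CPM in EM members and 40.7 CPM in other EM CD8 T cells (1.97, interval 0.51 to 3.11, 6 UMIs). Its UMIs lay in 4 of 13 EM members, and 1 cell held 3 of the 6. Cd244a, a receptor of the SLAM family, stood at 160 CPM in EM members and 41.7 CPM in other EM CD8 T cells (1.94, interval 0.48 to 3.08). In PBS it was 104 CPM in members and 67.4 CPM in the others (0.63, interval 0.44 to 0.81). Entpd1 (CD39), an enzyme that breaks down extracellular ATP, stood at 79.9 CPM in EM members and 79.2 CPM in other EM CD8 T cells, on 3 UMIs, and at 193 and 134 CPM in PBS (0.53, interval 0.40 to 0.66).

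Transcription factors tied to exhaustion followed Tox in PBS. Of 19 measured, 17 were higher in members than in other CD8 T cells, none 2-fold, with a median log2 ratio of 0.49. Over all 6731 genes, 0.401% were 2-fold or more higher and 2.91% lower, with the median given above for the receptors. The others include cycling cells, and the values of these factors against the non-cycling ones are not given here. Prdm1 (Blimp-1), a repressor of memory genes, stood at 197 CPM in members and 117 CPM in other CD8 T cells (0.75, interval 0.61 to 0.88). Nr4a2, a nuclear receptor induced by T cell receptor signalling, stood at 912 and 526 CPM (0.80, interval 0.73 to 0.86). Batf, an AP-1 partner, stood at 102 and 65.9 CPM (0.62, interval 0.44 to 0.81). Eomes was the other way, at 38.1 CPM in members and 57.7 CPM in other CD8 T cells (-0.60, interval -0.88 to -0.33). In EM members Prdm1 stood at 160 CPM, against 43.8 CPM in other EM CD8 T cells (1.87, interval 0.41 to 3.01, 6 UMIs).

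The progenitor and memory genes were lower in PBS members, 11 of 12 measured, with 6 of them 2-fold or more lower and a median log2 ratio of -0.81. Over all 6731 genes measured, 2.91% were 2-fold or more lower. Tcf7 had a log2 ratio of -3.21 (interval -4.17 to -2.39). Lef1, its partner factor, stood at 13.5 CPM in members and 52.0 CPM in other CD8 T cells (-1.94, interval -2.42 to -1.51). Il7r, the receptor for the survival cytokine IL-7, stood at 377 CPM in members, 611 CPM in the low class and 552 CPM in the Gzmk-Ly6c2 class. Cycling cells held 170 CPM of Il7r, so against all other CD8 T cells together its log2 ratio was only -0.10, and against the non-cycling ones -0.59.

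The cytotoxic genes did not move together in PBS. Of 15 measured, 9 were higher and 6 lower in members than in other CD8 T cells, with a median log2 ratio of 0.08. That median was near the one over all genes given above. Prf1 was highest in members of the 5 PBS classes, whereas both leading granzymes were lower. Gzmb, the caspase-cleaving granzyme, stood at 1685 CPM in members and 2129 CPM in other CD8 T cells (-0.34, interval -0.38 to -0.30). Gzma stood at 462 and 1288 CPM (-1.48, interval -1.56 to -1.40). The same pair was lower in EM members than in other EM CD8 T cells. Gzmb stood at 1172 and 3571 CPM (-1.61, interval -2.07 to -1.18), and Gzma at 533 and 2999 CPM (-2.49, interval -3.21 to -1.87). Gzma and Gzmk both lie on chromosome 13 (mm10), at 113093825 to 113100981 and 113171608 to 113225908, and low Gzmk was a criterion of the rule.

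Several secreted factors were higher in PBS members than in other PBS CD8 T cells. Csf1, which feeds macrophages through CSF1R, stood at 218 CPM in members and 76.2 CPM in other CD8 T cells (1.52, interval 1.38 to 1.66). Ccl3 and Ccl4, inflammatory chemokines, stood at 664 and 318 CPM (1.06, interval 0.99 to 1.14) and at 654 and 334 CPM (0.97, interval 0.90 to 1.05). In EM, Csf1 stood at 213 CPM in members and 86.8 CPM in other CD8 T cells (1.29, interval 0.08 to 2.28). There, 1 EM member held 4 of its UMIs, each worth 26.6 CPM, and the interval takes UMIs as independent. Ccl3 was not higher in EM members, at 160 CPM, than in other EM CD8 T cells, at 390 CPM (-1.29, interval -2.73 to -0.16). Ccl4 differed little, at 772 and 802 CPM. Ccl3 is also made by macrophages, whose RNA is considered below.

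Surface receptors added a natural killer type gene and a neuronal guidance receptor. Klrh1, a killer cell lectin-like receptor, stood at 644 CPM in PBS members and 236 CPM in other PBS CD8 T cells (1.44, interval 1.37 to 1.52). In EM it stood at 586 and 204 CPM (1.52, interval 0.84 to 2.12). Its UMIs lay in 3 of 13 EM members and 329 of 683 PBS members, and 1 EM cell held 17 of the 22 in EM. Klrh1 had no UMI in the 8 EM members with fewer than 3 UMIs of myeloid, B cell and granulocyte markers. Nrp1, a semaphorin and VEGF co-receptor, stood at 303 and 133 CPM in PBS (1.19, interval 1.07 to 1.30). In EM it stood at 79.9 and 66.7 CPM (0.26, interval -2.02 to 1.82), on 3 UMIs. Cxcr6, a receptor that holds T cells in tissue, stood at 515 and 287 CPM in PBS (0.85, interval 0.76 to 0.93). Itgae (CD103), a residency integrin, was lower in PBS members, at 37.5 and 76.9 CPM (-1.04, interval -1.32 to -0.77), and had no UMI in EM members.

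**Figure D2:**
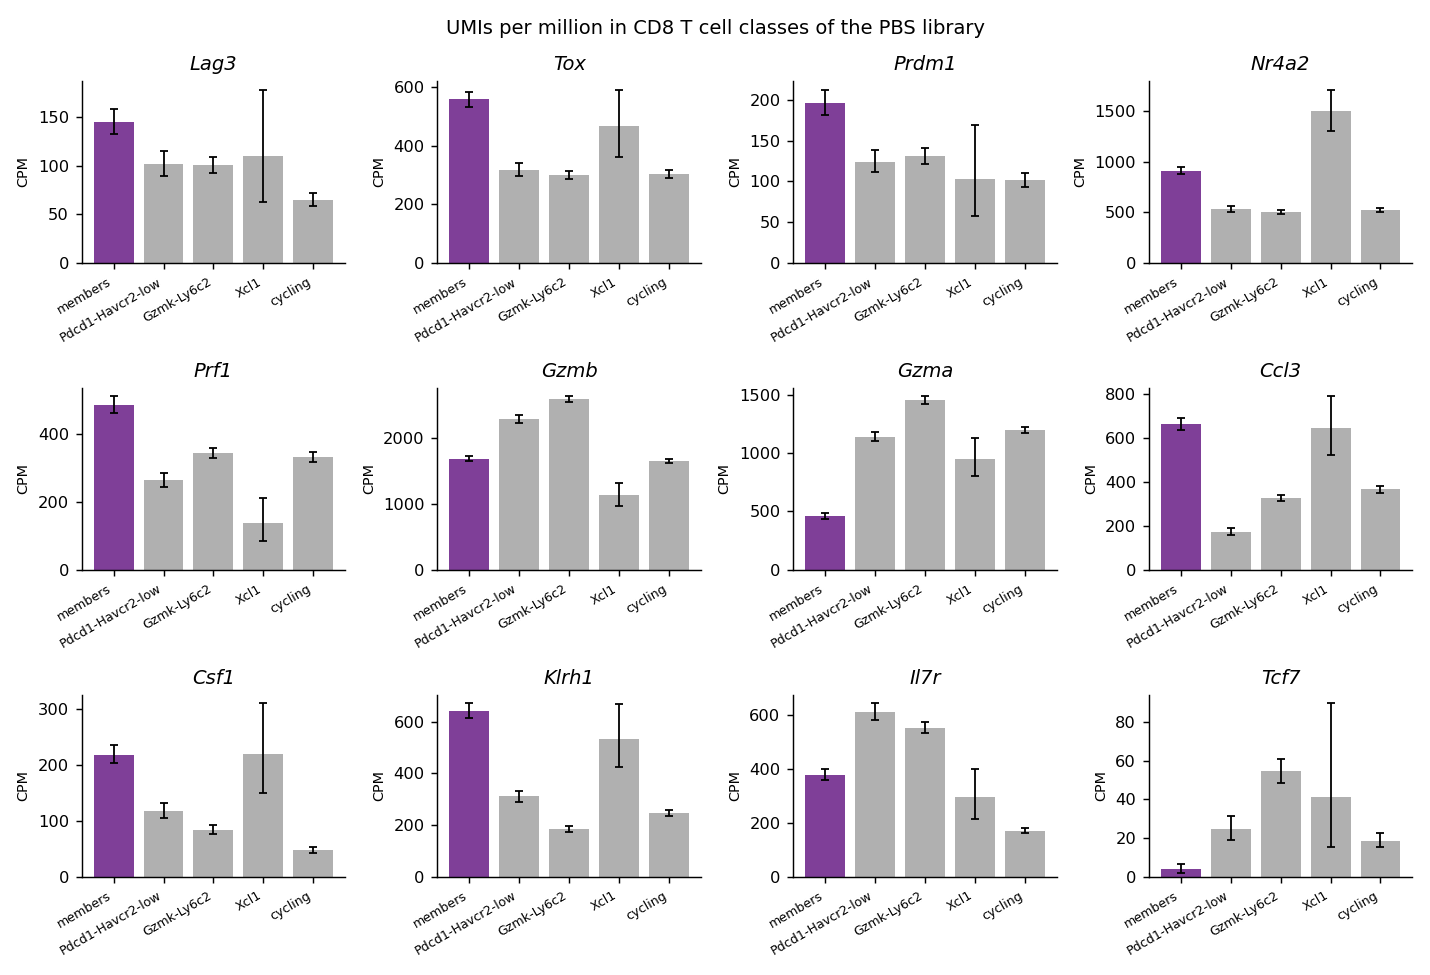
CPM of 12 genes in members (purple) and in the other CD8 T cell classes (grey) of the PBS library, with 95% Poisson intervals. Prf1 (485 CPM), Lag3, Tox, Prdm1 and Klrh1 are highest in members, Gzma (462 CPM) and Tcf7 (3.68 CPM) lowest, and the Xcl1 class of 26 cells has wide intervals.

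Members differed among themselves in which of the receptors they held. In EM, 3 of 13 had UMIs of Pdcd1 only, 2 of Havcr2 only and 8 of both. In PBS, 198 had Pdcd1 only (29.0%), 71 had Havcr2 only (10.4%) and 414 had both (60.6%). A missing UMI at these depths does not show a missing transcript, since the median PBS member with both had 2 UMIs of each.

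Summed over cells, transcripts of macrophages were highest in the Havcr2-only set. Genes in this paragraph were chosen after their values were seen. Cxcl2, a neutrophil-attracting chemokine, stood at 333 CPM in Havcr2-only, 26.3 CPM in double-positive and 12.7 CPM in Pdcd1-only cells. Chil3 (Ym1), a macrophage lectin, stood at 354, 103 and 19.6 CPM. The summed level of the 15 myeloid markers was 4780 CPM in Havcr2-only, 1892 CPM in double-positive and 660 CPM in Pdcd1-only cells. The cells with 3 or more UMIs of myeloid, B cell and granulocyte markers were 53.5%, 49.3% and 49.5% of these sets. The median cell of each set had 2 UMIs of the myeloid markers, so the sums do not describe the typical cell. In the cells with fewer such UMIs, Cxcl2 had no UMI in 33 Havcr2-only cells and stood at 15.4 CPM in double-positive and 12.9 CPM in Pdcd1-only cells. Chil3 likewise had none in those Havcr2-only cells.

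Some differences between these sets remained without those cells and others did not. Zeb2, a factor of terminal effector cells, stood at 163 CPM in Havcr2-only, 121 CPM in double-positive and 74.7 CPM in Pdcd1-only cells with few other-lineage UMIs. Cd7, a gene of less differentiated T cells, ran the other way, at 52.0, 106 and 183 CPM. Prf1 was lowest in Pdcd1-only cells, at 373 CPM, against 505 CPM in Havcr2-only and 543 CPM in double-positive cells. With 33 Havcr2-only cells left, their intervals for Prf1 (392 to 640 CPM) and Zeb2 (102 to 247 CPM) overlapped those of both other sets. Ccl3 turned round: with all cells it was 935 CPM in Havcr2-only and 764 CPM in double-positive cells, and without the cells holding other-lineage UMIs it was 186 and 800 CPM. In Pdcd1-only cells it was 324 CPM with all cells and 420 CPM without them.

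**Figure D3:**
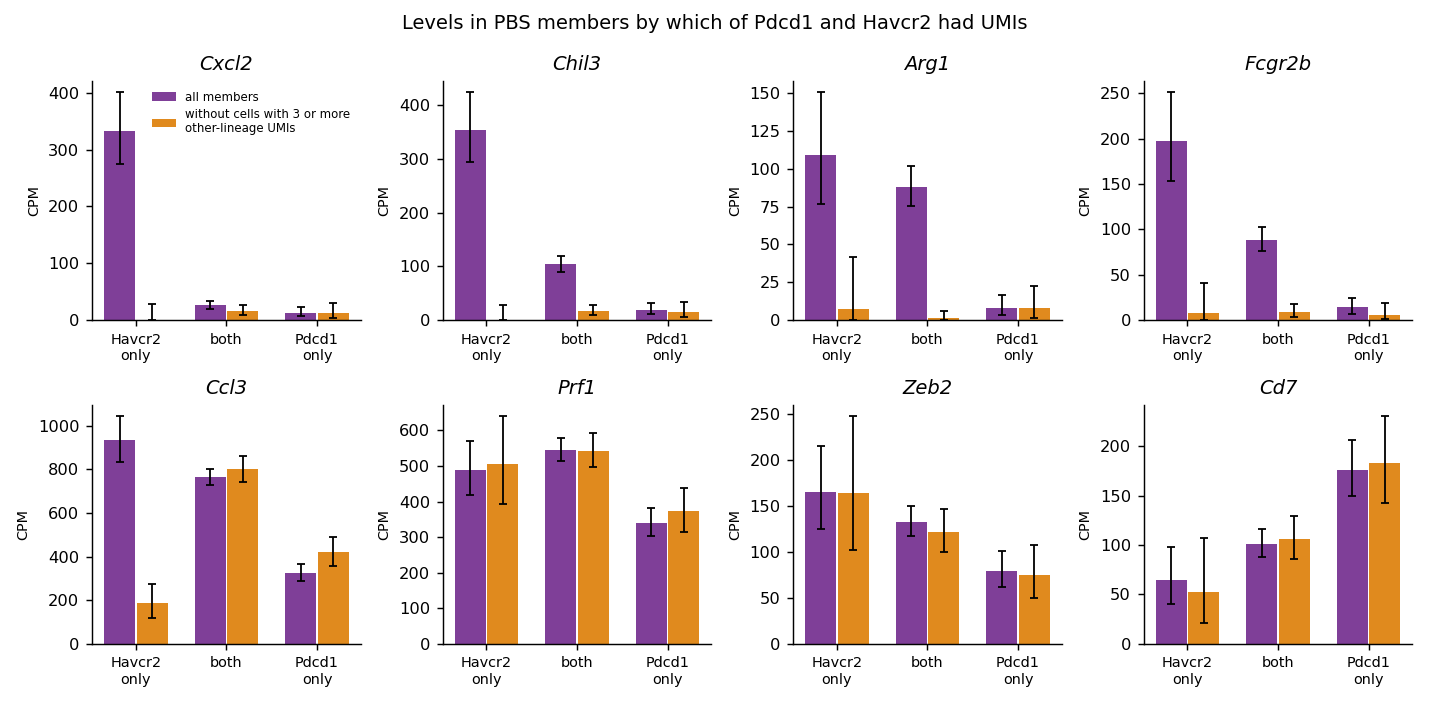
CPM in PBS members with UMIs of Havcr2 only (71 cells), both receptors (414) or Pdcd1 only (198), for all of them (purple) and without cells holding 3 or more UMIs of other lineages (orange), with 95% Poisson intervals. Cxcl2, Chil3 and Fcgr2b are highest in Havcr2-only cells, Arg1 is at 109 CPM there and 87.8 CPM in double-positive cells, and the Havcr2-only values are near 0 without those cells, while Prf1, Zeb2 and Cd7 keep the order of their values, with intervals that partly overlap.

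The level of several genes changed with the number of Pdcd1 plus Havcr2 UMIs, inside and outside the threshold. Among PBS cells that met all other criteria there were 370 with 0 UMIs, 302 with 1, 226 with 2, 157 with 3, 108 with 4 and 192 with 5 or more. Prf1 stood at 215, 318, 375, 425, 424 and 650 CPM over these bins. Nrp1 stood at 83.4, 166, 197, 248, 313 and 430 CPM. Between the cells just outside the threshold, with 1 UMI, and those just inside it, with 2, the intervals of both genes overlapped. In cells with few other-lineage UMIs those of Nrp1 overlapped too, whereas Prf1 stood at 319 CPM (interval 275 to 368) at 1 UMI, 444 CPM (interval 382 to 514) at 2 and 375 CPM at 3. Ccl3 stood at 160, 190, 352, 418, 439 and 1209 CPM, so that its level in members came largely from the 192 cells with most receptor UMIs. Il7r stood at 693 CPM in cells with 0 and 377 CPM in those with 5 or more. Cells with more receptor UMIs were also deeper, with a median of 3473 UMIs in the first bin and 5473 in the last.

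**Figure D4:**
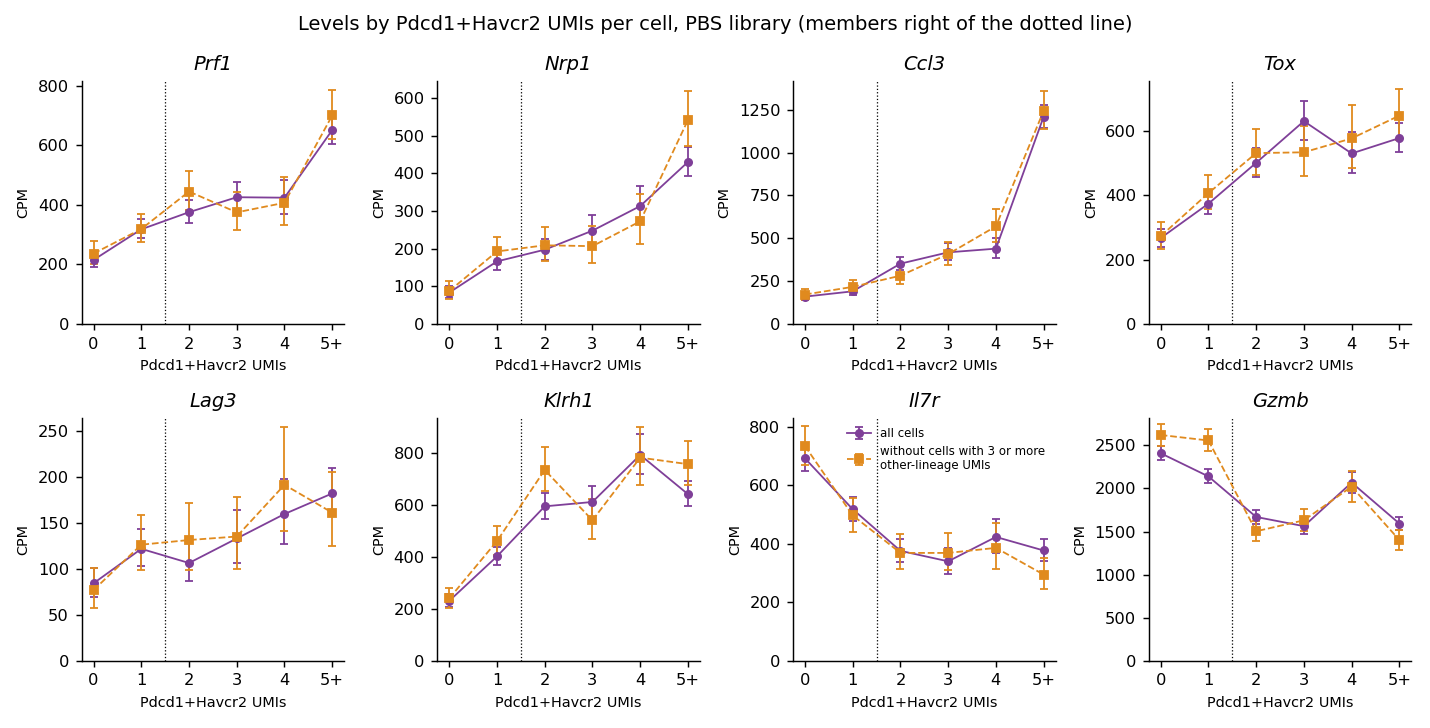
CPM of 8 genes against the number of Pdcd1 plus Havcr2 UMIs per cell in the PBS library, for cells meeting all other criteria (purple) and for those with few other-lineage UMIs (orange), with 95% Poisson intervals. Prf1 runs from 215 CPM at 0 UMIs to 650 CPM at 5 or more, and Ccl3 is at 1209 CPM in the last bin.

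Markers of other cells were present in members of both libraries. The 15 myeloid markers summed to 639 CPM in EM members, with 4 of 15 detected, and to 1864 CPM in PBS members, with 15 of 15. Other CD8 T cells had 932 CPM in EM and 1405 CPM in PBS. In PBS members the tenth of cells with most of these UMIs held 79.0% of them. Arg1 and Apoe, both genes of tumour macrophages, stood at 68.8 CPM in PBS members and 29.8 CPM in other PBS CD8 T cells (1.20, interval 0.96 to 1.44), and at 321 and 181 CPM (0.83, interval 0.72 to 0.93). Without cells holding 3 or more other-lineage UMIs, Arg1 stood at 3.49 CPM in PBS members and 2.29 CPM in other PBS CD8 T cells, and the log2 ratio of members over others was 1.38 for Klrh1, 1.43 for Csf1, 1.03 for Ccl3, 0.81 for Prf1 and 0.80 for Tox. The markers of natural killer cells summed to 559 CPM in EM members and 515 CPM in PBS members, and those of granulocytes to 0 and 24.3 CPM.

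The comparison of EM with PBS within the members rests on 37557 UMIs from 13 cells. Of 7254 genes measured, 17.8% were 2-fold or more higher in EM and 25.7% lower, and 1276 of them had no UMI in EM. In other CD8 T cells the shares were 3.11% and 5.01% of 6721 genes, and in the wider set 4.89% and 9.47% of 6749. A 2-fold difference in the 13 cells was therefore common among all genes, and values of the wider set and of other CD8 T cells are given beside the main results below. Over all genes measured, 3603 were higher and 3651 lower in EM members.

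Type I interferon genes were higher in EM members. Of 19 measured of 32 listed, 18 were higher in EM, 14 of them 2-fold or more, with a median log2 ratio of 1.91, against -0.01 over all genes measured and 0.23 over those with UMIs in both libraries. At least 20 CPM in the higher library was needed to be measured, and 1 EM UMI is more than that, so genes low in PBS passed only where EM members held a UMI. With a minimum of 5 UMIs and none on CPM, 22 of 28 were higher, with a median of 1.88. In the wider set 28 of 28 were higher with a median of 2.44, and in other CD8 T cells 30 of 30 with a median of 2.66. The difference was therefore present in other CD8 T cells too, and whether its size differed between them and the members was not tested. In PBS, 14 of 18 measured were lower in members than in other CD8 T cells, with a median of -0.22, against 0.04 over all genes. In EM, 23 of 30 were lower in members, 7 of them with no UMI, where 3328 of all 7184 genes were lower and 1092 had no UMI.

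Ifi27l2a, a small interferon-induced protein, had UMIs in 13 of 13 EM members and 175 of 683 PBS members. Its level was 2396 CPM in EM members and 89.9 CPM in PBS members (log2 ratio 4.74, interval 4.38 to 5.08). It was 3.94 in the wider set and 3.26 in other CD8 T cells. After thinning to 1000 UMIs per cell, 84.6% of EM members (interval 54.6 to 98.1%) and 8.50% of PBS members (interval 6.52 to 10.9%) held a UMI. Rtp4, an inhibitor of virus replication, stood at 240 and 19.3 CPM (3.63, interval 2.44 to 4.65), with UMIs in 6 of 13 EM members and 51 of 683 PBS members. It was 2.97 in the wider set and 2.72 in other CD8 T cells. Xaf1, a pro-apoptotic partner of XIAP, stood at 373 and 45.4 CPM (3.04, interval 2.13 to 3.83), with 2.42 in the wider set and 2.03 in other CD8 T cells. Ifit3 had 1 UMI in EM members (1.12, interval -4.22 to 3.68), and stood at 157 CPM in EM and 15.5 CPM in PBS in the wider set (3.34, interval 2.86 to 3.80).

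Ifi206 and Ifi214, members of the PYHIN family of DNA sensors, lie next to each other on chromosome 1, and as near copies they may share reads. Ifi206 stood at 533 CPM in EM members and 60.2 CPM in PBS members (3.15, interval 2.40 to 3.81), with 2.995 in the wider set and 2.59 in other CD8 T cells. Ifi214 stood at 213 and 14.7 CPM (3.85, interval 2.56 to 4.95), with 3.56 and 3.20. The interferon-stimulated response element, a sequence bound by interferon-activated factors, was searched as GAAANNGAAA on both strands of RefSeq promoters (GRCm38.p6), from 250 bases before to 50 after the start of a gene. It was found in 3.44% of 32851 promoters. Counted by gene, with any promoter of a gene enough, it was found in 3.99% of 27025 genes. By the same count it was found in 14 of the 24 type I interferon genes with an entry. Both PYHIN promoters held it with the same letters, shown in capitals because the 2 genes differed alike, at 40 bases before the start in Ifi206 (chr1:173491269-173491568, minus strand) and 79 in Ifi214 (chr1:173535908-173536207, minus strand). These distances are from the RefSeq starts, and GENCODE places the start of Ifi206 at 173491041, outside the stretch shown. The promoter of Xaf1 had no match to these letters.
Ifi206: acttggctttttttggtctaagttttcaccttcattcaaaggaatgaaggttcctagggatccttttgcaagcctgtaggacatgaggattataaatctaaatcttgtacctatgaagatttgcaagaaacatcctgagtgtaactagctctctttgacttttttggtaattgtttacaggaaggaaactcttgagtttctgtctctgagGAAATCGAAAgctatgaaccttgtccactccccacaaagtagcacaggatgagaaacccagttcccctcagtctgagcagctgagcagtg
Ifi214: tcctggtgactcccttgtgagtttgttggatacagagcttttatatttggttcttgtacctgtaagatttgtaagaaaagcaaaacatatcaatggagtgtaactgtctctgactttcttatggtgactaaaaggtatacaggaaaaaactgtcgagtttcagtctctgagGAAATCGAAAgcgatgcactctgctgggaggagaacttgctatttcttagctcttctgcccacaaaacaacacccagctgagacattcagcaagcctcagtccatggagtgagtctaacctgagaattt

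Serpinb9, the inhibitor that shields cytotoxic cells from their own granzyme B, went the other way. It had no UMI in the 13 EM members and stood at 560 CPM in PBS members, with UMIs in 475 of 683, so that it was at least 7.01-fold lower in EM, taking 3 UMIs over the EM members. In the wider set it stood at 72.4 CPM in EM and 573 CPM in PBS (-2.98, interval -3.54 to -2.48), and in other CD8 T cells at 85.2 and 485 CPM (-2.51). Near copies in its cluster on chromosome 13, Serpinb9b among them, may share its reads. Its promoter (chr13:33004291-33004590, plus strand) is shown because it too held 1 match, on the opposite strand, in capitals, although the level was lower where the interferon genes were higher. The match lay 46 bases before the RefSeq start. GENCODE starts the gene at 33003250, so that by its annotation the match lies inside the gene.
Serpinb9: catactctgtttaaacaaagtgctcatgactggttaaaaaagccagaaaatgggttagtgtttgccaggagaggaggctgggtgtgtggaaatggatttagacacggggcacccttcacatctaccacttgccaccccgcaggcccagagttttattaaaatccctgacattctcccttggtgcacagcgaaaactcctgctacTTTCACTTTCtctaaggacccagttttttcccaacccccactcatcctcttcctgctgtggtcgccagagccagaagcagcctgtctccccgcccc

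Effector genes differed gene by gene. Prf1 stood at 133 CPM in EM members and 485 CPM in PBS members (-1.86, interval -3.49 to -0.64), and was lower in EM also in the wider set (-1.07) and in other CD8 T cells (-1.56). Ccl5, a chemokine of memory and effector cells, stood at 7402 and 13287 CPM (-0.84, interval -1.02 to -0.67), with -1.28 in the wider set and -0.79 in other CD8 T cells. Gzmb stood at 1172 and 1685 CPM (-0.52, interval -0.99 to -0.10), whereas it was higher in EM in the wider set (1.16) and in other CD8 T cells (0.75). Gzma stood at 533 and 462 CPM (0.21, interval -0.51 to 0.84), and was higher in EM in the wider set (1.95) and in other CD8 T cells (1.22). Cells with Gzmk or Ly6c2, which the rule leaves out, held most Gzma and Gzmb UMIs in EM. They would hold most UMIs of many genes, since the Gzmk-Ly6c2 class was 77.7% of EM CD8 T cells. That class held 4800896 of the 6589759 UMIs of EM CD8 T cells. The cause of the unlike ratios was not tested. Ifng, the effector cytokine interferon gamma, stood at 160 and 132 CPM (0.27, interval -1.18 to 1.41), with 1.45 in the wider set.

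The receptors that define the members stood at like levels in both libraries, a description since the rule fixed them. Pdcd1 stood at 479 CPM in EM members and 468 CPM in PBS members, and Havcr2 at 453 and 387 CPM. Tox stood at 559 and 558 CPM (0.00, interval -0.69 to 0.62), but at 255 and 485 CPM in the wider set (-0.93, interval -1.22 to -0.65) and 156 and 306 CPM in other CD8 T cells (-0.97). Lag3 stood at 160 and 145 CPM in members (0.14, interval -1.32 to 1.27). It stood at 79.4 and 140 CPM in the wider set (-0.81) and 40.7 and 86.4 CPM in other CD8 T cells (-1.08). The member interval of Lag3 holds both of these ratios, so whether members differed from those sets cannot be read from it. Ctla4 stood at 399 and 713 CPM in members (-0.84, interval -1.68 to -0.11), with -0.79 in the wider set and -0.97 in other CD8 T cells. Of 15 inhibitory receptors measured outside the rule, 8 were higher and 7 lower in EM members, with a median of 0.08.

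Activation genes did not share a direction. Cd69, an early activation antigen that retains cells in tissue, stood at 586 CPM in EM members and 104 CPM in PBS members (2.49, interval 1.799 to 3.11), with 2.48 in the wider set and 2.51 in other CD8 T cells. Fosb, an AP-1 subunit, stood at 1065 and 282 CPM (1.91, interval 1.42 to 2.37), with 1.77 and 1.85. Egr1, another immediate early factor, rested on 2 UMIs, at 53.3 and 386 CPM (-2.86, interval -5.91 to -1.002), and its log2 ratio was -0.37 in the wider set. Tnfrsf9 (4-1BB), a costimulatory receptor, stood at 133 and 428 CPM (-1.68, interval -3.31 to -0.46), with -0.66 in the wider set. The natural killer type receptors Klrk1 (NKG2D) and Klrd1 (CD94) stood at 506 and 175 CPM (1.53, interval 0.79 to 2.19) and at 1305 and 799 CPM (0.71, interval 0.27 to 1.11). In the wider set they were 0.99 and 0.53, and in other CD8 T cells 0.92 and 0.49.

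The hypoxia genes were lower in EM members, 14 of 14 measured, with 6 at no UMI, but the size rested on few counts, and 3651 of all 7254 genes were lower, 1276 of them with no UMI. Their median log2 ratio was -1.64 with genes at 0 ranked as lowest, -0.34 with those genes put at 3 UMIs, -0.29 in the wider set and -0.28 in other CD8 T cells. Of 16 glycolysis genes, 13 were lower in EM members, 3 of them with no UMI, and in the wider set 7 of 15. Pkm, a pyruvate kinase, stood in members at 53.3 CPM in EM, on fewer than 3 UMIs, and 338 CPM in PBS (-2.67, interval -5.71 to -0.81). In the wider set Pkm stood at 414 CPM in EM and 369 CPM in PBS (0.17). Of 19 MHC class I genes, 15 were higher in EM members, none 2-fold. Their median of 0.29 was near the 0.23 over all genes with UMIs in both libraries. H2-D1 stood at 4713 and 2979 CPM (0.66, interval 0.44 to 0.88), with 0.51 in the wider set and 0.50 in other CD8 T cells.

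**Figure D5:**
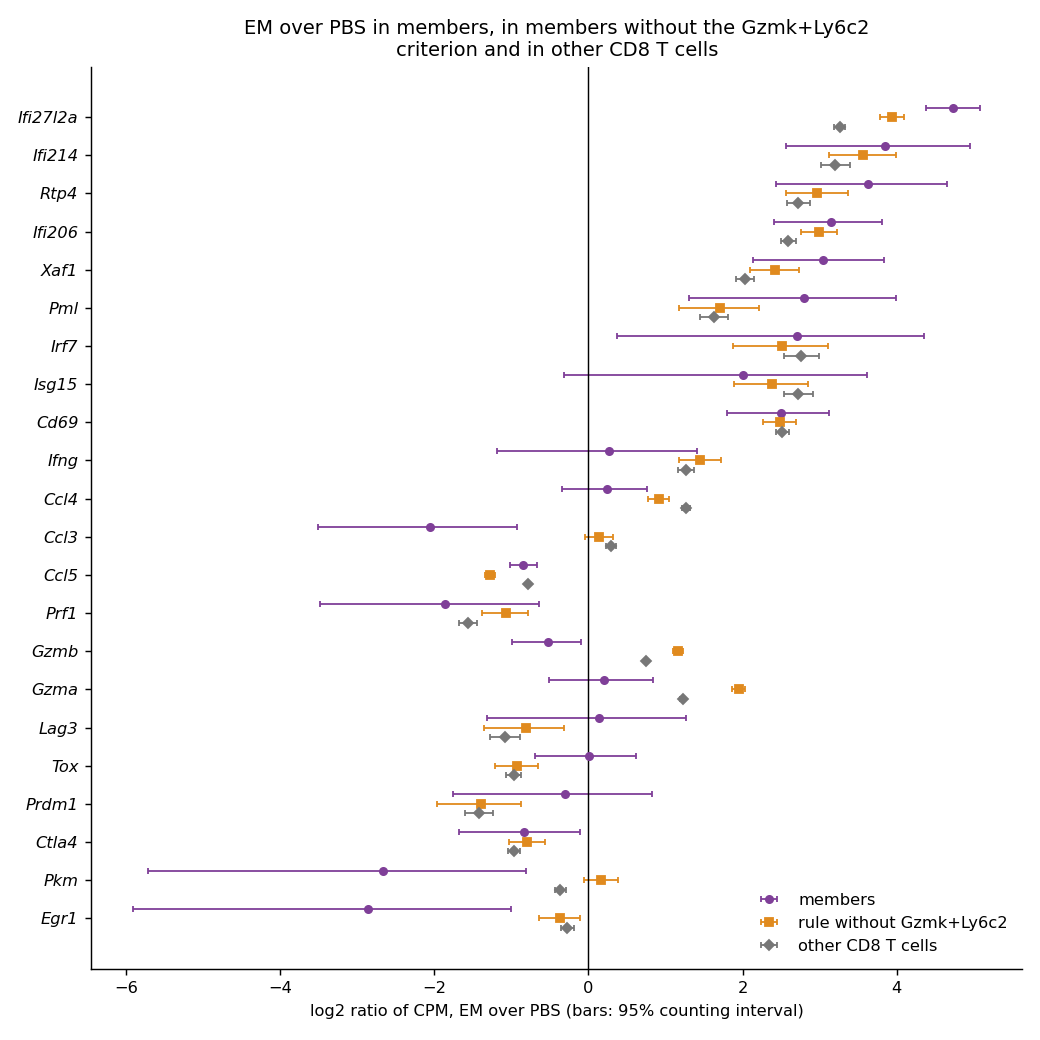
Log2 ratio of CPM, EM over PBS, of 22 genes in members (purple), in the wider set without the Gzmk plus Ly6c2 criterion (orange) and in other CD8 T cells (grey), with 95% counting intervals. The interferon genes and Cd69 lie right of 0 in all sets, with the member interval of Isg15 reaching 0. Prf1, Ccl5 and Ctla4 lie left of 0. Ccl3, Gzmb and Pkm differ in sign between members and the wider set, Pkm on fewer than 3 UMIs in EM members.

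Receptor usage could not be read from these counts. The variable segments of the T cell receptor beta chain had 1 UMI in EM members and 54 in PBS members, of which Trbv15 held 44.4% (interval 30.9 to 58.6%). In other PBS CD8 T cells Trbv15 held 32.2% of 208 UMIs (interval 25.9 to 39.0%), within the interval of the members.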

How the data were processed

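The deposited files held UMI counts per gene and cell barcode, made by the authors from BD Rhapsody reads. CASAVA 1.8, STARsolo and the mm10 build are named in the submitters' processing notes. Cells with at least 500 UMIs, 200 genes and at most 20% mitochondrial UMIs were kept, and no doublet caller was run. Counts were summed over cells per library and scaled to CPM. Ratios carry exact conditional binomial 95% intervals and shares Clopper-Pearson intervals, both for counting error only; UMIs are molecules, but cells of 1 library share their source. A gene counted as measured with at least 20 UMIs over both sums and 20 CPM in the higher, and 2-fold was the size threshold. There was 1 library per group, so no test was run. EM members held 37557 UMIs and PBS members 3257449.

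The member rule and the gene lists were chosen with earlier results of these data known. Genes were named by size of ratio (15 highest and 15 lowest with at least 50 CPM and 50 UMIs and an interval excluding 0, and likewise for members over other CD8 T cells), by the 3 highest and 3 lowest of each list, or from a list always named. Nrp1 and the genes of the Havcr2-only cells were named after their values were seen. Listed genes with no row in the files were not analysed here. Promoters came from RefSeq (GRCm38.p6) and gene positions from GENCODE for mm10. The ratio step was checked on simulated counts with independent UMIs. That setting leaves out the clustering of UMIs within single cells, so it does not bear on the width of the EM intervals. Alternatives were a stricter cell filter, other receptor thresholds, thinning to 1000 UMIs, equal weight per cell, median centring, other count minimums and leaving out cells with 3 or more UMIs of other lineages. Dropping the Gzmk plus Ly6c2 criterion, dropping barcodes found in both libraries and leaving out cycling cells were added after the data were seen. Python 3.11.15, numpy 2.4.6, scipy 1.17.1, pandas 2.3.3 and matplotlib 3.10.9 were used. Some items are not reported here.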

Additional observations from a re-analysis of the deposited data

Results flagged for a closer look

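In 3 named genes that differed 2-fold or more in members, the EM over PBS ratio had opposite signs in members and in other CD8 T cells, with both intervals away from 0; the difference itself was not tested. Gzmb, under 2-fold in members, also had opposite signs. H1f2, a linker histone, had a log2 ratio of 3.19 in members (8 UMIs in EM), -0.59 in other CD8 T cells and 0.43 without the Gzmk plus Ly6c2 criterion. B3glct, a glucosyltransferase, had 2.98 in members (5 UMIs in EM), -0.45 in other CD8 T cells and 0.87 without that criterion. Ccl3 had -2.06 in members (6 UMIs in EM), 0.29 in other CD8 T cells and 0.14 without that criterion.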

How the results depend on the processing

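No paired analysis was possible because each group had 1 library, and no replicate could be left out. The EM share of 0.547% became 0.955% with members chosen at 1000 UMIs, 0.211% with 3 or more Pdcd1 plus Havcr2 UMIs and 5.73% without the Gzmk plus Ly6c2 criterion. The PBS share of 22.2% became 9.03%, 14.8% and 38.1% under the same settings, 13.4% with 1 UMI of each receptor and 25.7% without cells holding other-lineage UMIs. The log2 ratio of shares, -5.34, became -3.24 at 1000 UMIs and -2.74 without the Gzmk plus Ly6c2 criterion.

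Genes 2-fold or more higher in EM members, 1294, became 147 with members chosen at 1000 UMIs, 482 with a minimum of 100 UMIs and 330 without the Gzmk plus Ly6c2 criterion. Those lower, 1863, became 366 at 1000 UMIs, 2818 with 3 or more receptor UMIs, 5960 with a minimum of 5 UMIs and none on CPM, and 639 without that criterion. In PBS, genes higher in members than in other CD8 T cells, 27, became 326 with members chosen at 1000 UMIs, 76 with members thinned, 41 with 1 UMI of each receptor, 42 without other-lineage cells and 13 without that criterion. Those lower, 196, became 693 at 1000 UMIs and 51 against non-cycling cells.

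Without the Gzmk plus Ly6c2 criterion the EM over PBS log2 ratio turned to 0.23 for Mif, 0.14 for Ccl3, 0.17 for Pkm and -0.0015 for Gimap5. With members thinned it turned to -1.26 for Ctsw and -0.22 for Gimap5, with members chosen at 1000 UMIs to -0.44 for Gimap5, and without other-lineage cells to -0.39 for Ltb. The cause was not tested. The 37557 UMIs of EM members limit every EM value.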
